A study of Homo sapiens with 6 samples.

Results

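Pulmonary surfactant is the film of phospholipid and protein that keeps the alveoli open, and alveolar type II cells make it, store it in lamellar bodies and secrete it. SP-B and SP-C are small hydrophobic proteins cut out of larger precursors by proteases, SP-A and SP-D are collectins that bind microbes, and ABCA3 carries phospholipid into the lamellar body. NKX2-1 is the homeodomain transcription factor of lung and thyroid that binds a CAAG core (CTTG on the other strand) and drives several of these genes. The 10 genes described here are SFTPB (SP-B), SFTPA1 and SFTPA2 (SP-A), SFTPC (SP-C), SFTPD (SP-D), the lipid transporter ABCA3, the proteases NAPSA and CTSH, the lysophosphatidylcholine acyltransferase LPCAT1 and the phosphate transporter SLC34A2. They were chosen by symbol from the count tables, and all 10 were among the 26485 symbols. Of these, 7 passed the filter of at least 10 counts in at least 3 libraries, as did 13356 genes in all. SFTPC, SFTPD and SLC34A2 did not.

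RNA-seq was performed on A549, a human lung carcinoma cell line. All the cells stably carried dCas9-KRAB, a cleavage-dead Cas9 fused to a repressor domain, together with rat Nkx2-1, both introduced by lentivirus, and were selected with 10 ug/ml puromycin and by sorting for GFP. Cells transfected with a synthetic non-targeting guide (sgRNA control, 3 libraries) were compared with cells transfected with sgRNA #2, a guide to the first intron of SFTPB (3 libraries). The question was what happens to SFTPB, and to other genes, when dCas9-KRAB is brought to this NKX2-1-bound intron. The transgenes limit the model: the rat gene is read from a viral PGK promoter and has no row of its own in a human annotation, 1 cell line was used, and no library without the Nkx2-1 transgene was analysed here. In bulk RNA, fewer cells with a transcript and less transcript per cell cannot be told apart.

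Between 6047554 and 7584611 reads were assigned to genes per library, so that 3 counts, the limit that a count of 0 allows, equal 0.396 to 0.496 CPM, the count scaled to the size of its library. Of the 20 alveolar type II marker genes, 12 passed the count filter, and PGC, SFTA3 and WIF1 were at 0 in all 6 libraries. The summed level of the 20 was 2443 to 2548 CPM with sgRNA control and 1817 to 2046 CPM with sgRNA #2. LPCAT1 made up 59.4% of the sum. The list holds SFTPB, the guide's target, whose mean was 417 CPM with sgRNA control and 6.72 CPM with sgRNA #2. The means of LPCAT1 were 1404 and 1219 CPM, so these sums do not show a fall of type II markers as a set. Markers of other cell types were also read. The 10 type I genes summed to 1279 to 1476 CPM with sgRNA control and 1250 to 1351 CPM with sgRNA #2, led by CAV1, while PDPN and CLIC5 were at 0 in every library. Of the leukocyte genes, CD68 made up 99.0% of a sum of 62.6 to 68.6 CPM, and PTPRC and CD3E were at 0. The sums over both groups were 32.3 to 42.3 CPM for the basal genes, led by TP63 with KRT14 and DAPL1 at 0, 13.5 to 17.7 CPM for the ciliated genes, and 6.16 to 9.24 CPM for the fibroblast and endothelial genes, led by COL1A1 with COL1A2 at 0.

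The target of sgRNA #2 lies on the minus strand at chr2:85668529-85668551 (GRCh38). Its 20 bases followed by this AGG PAM had 1 exact match on the chromosomes that carry the tested genes. Matches of the 20 bases next to another NGG PAM were not searched over whole chromosomes. It is shown because the comparison rests on it, with the PAM in capitals.
sgRNA #2 target: gggatgggaggggaacacccAGG
The 143 bases around it, chr2:85668469-85668611, are given in the direction of SFTPB transcription with the target and PAM in capitals.
Around the target: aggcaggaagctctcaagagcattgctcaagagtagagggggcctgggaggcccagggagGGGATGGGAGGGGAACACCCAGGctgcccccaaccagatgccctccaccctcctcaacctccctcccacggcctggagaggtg
This window held 2 matches to CAAG or CTTG, which began 46 and 33 bases upstream of the target. How often other windows of 143 bases hold as many was not computed.

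SFTPB lies on the minus strand at chr2:85657314-85668741 and has 7 annotated transcripts (GENCODE 44). The target was within the first intron of the 2 transcripts that start at 85668741, 190 bp downstream of that start. It was upstream of the start of the other 5 transcripts, at -352 bp from the start of the canonical transcript at 85668199. The position is therefore intronic or upstream depending on the transcript, and the gene-level counts do not separate the transcripts. The 250 bases before the canonical start, chr2:85668200-85668449 (RefSeq, GRCh38.p14), lie just downstream of that window and are shown with each CAAG or CTTG in capitals.
SFTPB promoter: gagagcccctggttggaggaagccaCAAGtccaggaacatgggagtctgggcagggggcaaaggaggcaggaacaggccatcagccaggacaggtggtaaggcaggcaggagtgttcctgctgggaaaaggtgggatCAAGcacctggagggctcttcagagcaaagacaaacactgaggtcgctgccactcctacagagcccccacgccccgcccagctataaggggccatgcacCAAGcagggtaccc
It held 3 such matches, at -225, -113 and -14 from the start. The 250 bases before the other start, at 85668741, held 1, at -37. This short core is common, since 80.9% of 35116 RefSeq promoter windows of that length held at least 1 match and 27.7% held 3 or more.

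**Figure D1:**
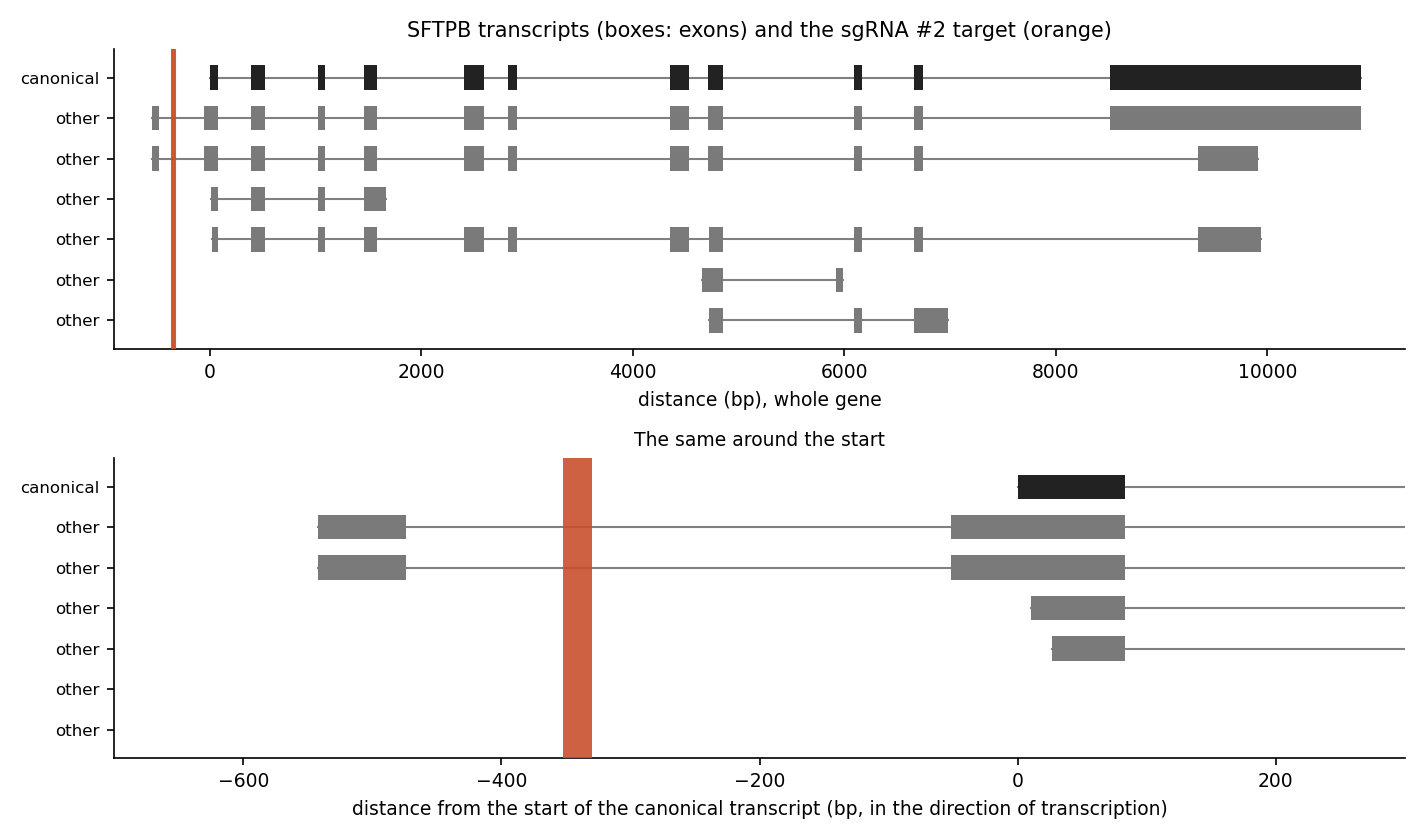
The 7 SFTPB transcripts by distance in bp from the canonical start, over the whole gene (top) and around the start (bottom); boxes are exons, lines introns and the orange bar the sgRNA #2 target. The target lies between the first and the second exon of 2 transcripts and at -352 bp from the canonical start.

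SFTPB, whose product is needed for surfactant to spread and for breathing after birth, fell by 5.96 on the log2 scale with sgRNA #2. Its counts were 2683, 2877 and 3155 in the sgRNA control libraries against 40, 42 and 49 in the sgRNA #2 libraries. The corresponding levels were 427, 408 and 415 CPM against 5.69, 6.31 and 8.16 CPM. All sgRNA #2 libraries lay far below all control libraries, and the groups did not overlap. The group means were 417 ± 9.92 CPM and 6.72 ± 1.29 CPM (SD, n = 3 each), a 62.0-fold difference. The fitted change had an SE of 0.101, a 95% interval of -6.18 to -5.75 and an adjusted p of 5.56e-17 (edgeR quasi-likelihood test, Benjamini-Hochberg over 13356 genes). By p it ranked 1 among all genes tested, and by the size of the fold change it ranked 4.

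What remained of SFTPB was small but above the limit of detection. The 3 sgRNA #2 libraries kept 1.37%, 1.51% and 1.96% of the control mean (mean 1.61 ± 0.309%, SD, n = 3). Among the control libraries the coefficient of variation was 2.38%, where counting error alone gives 1.86%. Among the sgRNA #2 libraries it was 19.1% against 15.1% from counting. In both groups SFTPB therefore varied little beyond counting error. Libraries that share a replicate number differed by -6.23, -6.01 and -5.67 (log2) in pairs 1, 2 and 3.

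Of the 7 members tested, SFTPB alone passed both cut-offs, a change of at least 2-fold and an adjusted p under 0.05. Over all genes 0.719% passed them, 0.689% lower and 0.0299% higher with sgRNA #2. With the adjusted p alone, SFTPA1 was higher and SFTPB lower, against a background of 0.464% of all genes higher and 2.22% lower. DESeq2 made the same calls on the members, with 0.614% of all genes past both cut-offs and 2.26% past the adjusted p. The groups did not overlap for SFTPB and SFTPA1 only among the 7, and over all genes 15.6% did not overlap.

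**Figure D2:**
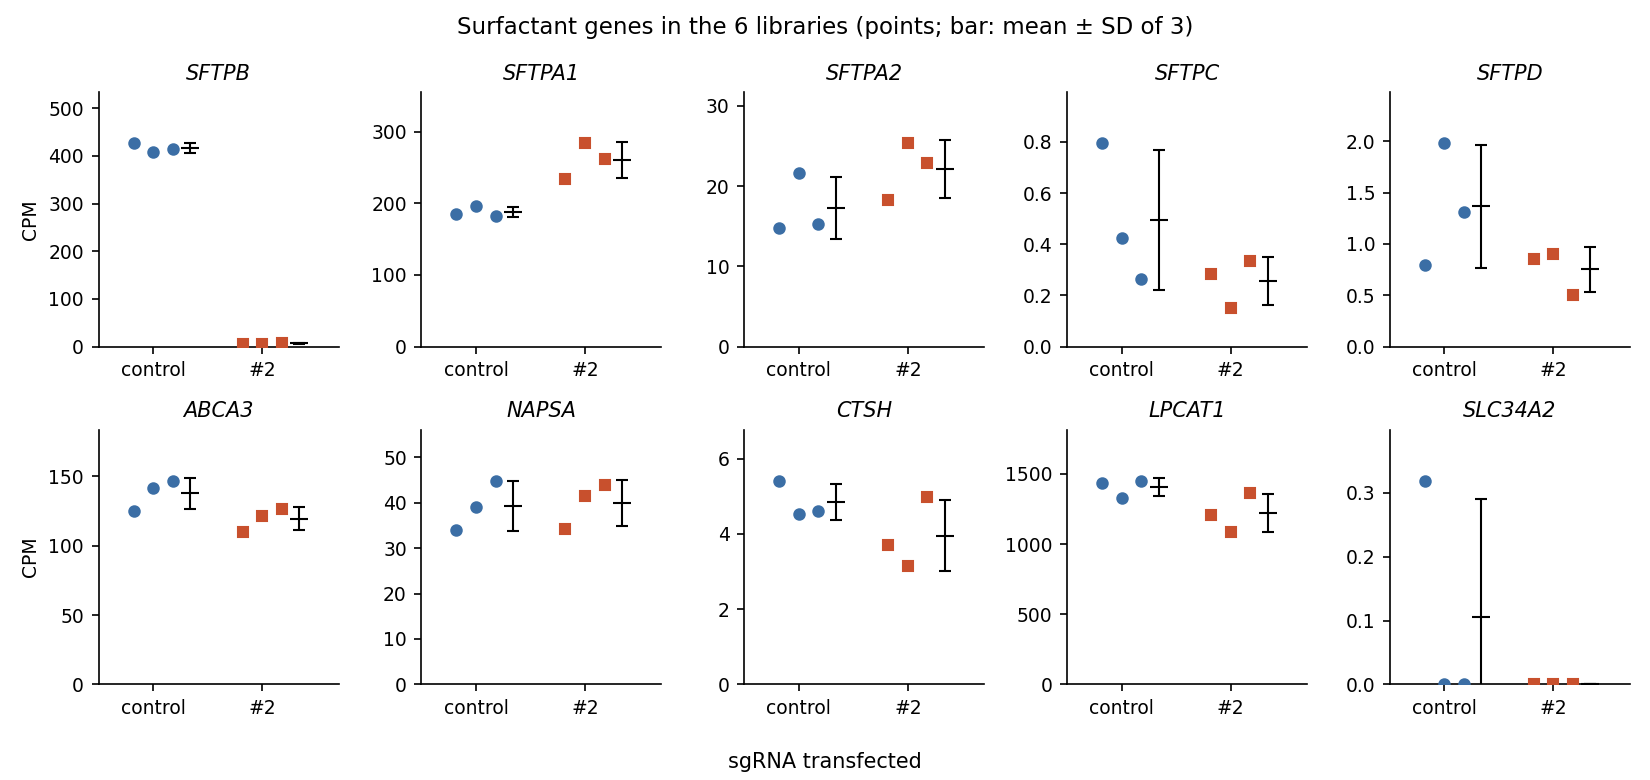
Level of each surfactant gene in CPM (linear axes from 0) in the 3 sgRNA control libraries (blue circles) and the 3 sgRNA #2 libraries (orange squares), with the mean and SD of each group beside the points. SFTPB drops from 408 to 427 CPM to 5.69 to 8.16 CPM and SFTPA1 is higher in all 3 sgRNA #2 libraries, while the groups overlap for the other 8 genes.

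SFTPA1 encodes the more abundant of the SP-A transcripts in these cells, a collectin that coats microbes and takes part in surfactant structure. It was the only member called higher by the adjusted p in the fit on group alone. Its level was 185, 197 and 183 CPM with sgRNA control and 234, 285 and 263 CPM with sgRNA #2. The lowest sgRNA #2 library stood above the highest control library, and each same-numbered pair was higher with sgRNA #2, by 0.34, 0.53 and 0.52 (log2). The group means were 188 ± 7.55 and 260 ± 25.2 CPM (SD, n = 3 each). The fitted log2 fold change was 0.47 (SE 0.0737, 95% interval 0.31 to 0.63, adjusted p = 8.96e-04), a 1.39-fold change that stayed under the 2-fold cut-off. Among the 62 genes that were higher at this adjusted p, SFTPA1 ranked 6 by p and 7 by mean CPM.

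SFTPA2, the neighbouring SP-A gene, was measured at 14.8, 21.7 and 15.3 CPM with sgRNA control and at 18.2, 25.4 and 22.8 CPM with sgRNA #2. Control replicate 2 lay within the range of the sgRNA #2 libraries. The log2 fold change was 0.35 (SE 0.157, adjusted p = 0.386), and its unadjusted 95% interval, 0.02 to 0.69, included the change of SFTPA1. A fit that also blocked on replicate number gave an estimate of 0.36 and an adjusted p of 0.0176. The blocked fit called 10.0% of all genes at this threshold, 3.97% higher and 6.06% lower, and its p-values rest on a trended dispersion with no gene-specific part.

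The SP-A genes lie on chromosome 10, SFTPA1 at chr10:79610939-79615455 on the plus strand and SFTPA2 at chr10:79555852-79560407 on the minus strand. The 250 bases before the SFTPA1 start and before the more upstream SFTPA2 start (RefSeq, GRCh38.p14) are set side by side. The genes are near copies, and CAAG and CTTG are again in capitals.
SFTPA1 promoter, chr10:79610689-79610938: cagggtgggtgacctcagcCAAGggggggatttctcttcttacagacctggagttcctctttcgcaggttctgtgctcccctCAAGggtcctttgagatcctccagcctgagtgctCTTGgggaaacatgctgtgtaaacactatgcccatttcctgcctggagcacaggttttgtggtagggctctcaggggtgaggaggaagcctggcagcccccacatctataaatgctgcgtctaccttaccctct
SFTPA2 promoter, chr10:79560408-79560657: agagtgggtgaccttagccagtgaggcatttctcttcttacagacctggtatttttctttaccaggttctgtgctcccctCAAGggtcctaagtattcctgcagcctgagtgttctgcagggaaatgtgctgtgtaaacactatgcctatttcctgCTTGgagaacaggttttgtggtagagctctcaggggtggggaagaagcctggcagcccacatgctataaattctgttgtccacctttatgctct
The windows were identical at 214 of 255 aligned columns (83.9%). The SFTPA1 window held 3 core matches and the SFTPA2 window shown held 2. Each also held 1 match to TGTTTAC or its reverse GTAAACA, a sequence bound by FOXA factors, at -116 in SFTPA1 and at -117 in SFTPA2, which overlapped no CAAG or CTTG. That sequence was in 2.98% of the 35116 windows and in none of the other 11 windows that matched the surfactant genes, 13 windows for 9 of the 10 genes. Among those 11 is a second SFTPA2 window, before the start at 79559871, which held 3 core matches.

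Their canonical transcripts were 90.0% identical (2024 of 2248 aligned columns). Of the 50-base stretches of the SFTPA1 transcript, 19.2% also occurred in SFTPA2, and of those of 100 bases 9.12% did, so that reads from such stretches could be assigned to either gene. The read length and the treatment of such reads were not given in the sources used here, and the level of SFTPA2, the lower of the pair, is the less certain. The ratio of SFTPA1 to SFTPA2 counts was 12.5, 9.07 and 12.0 with sgRNA control and 12.9, 11.2 and 11.5 with sgRNA #2. The log2 ratio differed by 0.10 between the groups (3.47 ± 0.25 against 3.57 ± 0.11, SD, n = 3 each, two-sided exact permutation p = 0.8, where 0.10 is the smallest that 3 against 3 allows). An unequal change of the pair was therefore not detectable, and the difference turned to -0.05 without control replicate 2.

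SFTPC and SFTPD, the other genes named for surfactant proteins, were near the limit of detection. SFTPC, the gene most restricted to type II cells, had 5, 3 and 2 counts with sgRNA control and 2, 1 and 2 with sgRNA #2. Summed over libraries and scaled to the library sizes used for CPM, the ratio of sgRNA #2 to control was 0.532 with a 95% counting interval of 0.143 to 1.71. SFTPD had 5, 14 and 10 counts against 6, 6 and 3, a ratio of 0.55 with a counting interval of 0.274 to 1.06. Neither difference was detectable at this depth, and both intervals cover counting error only. SLC34A2, the phosphate transporter of the type II cell surface, had 2 counts in a single control library and 0 in the other 5 libraries, so no fold is given. SFTPC shares exonic sequence positions with LGI3 and SFTPD with ENSG00000283913 on the opposite strand, and the strand setting of the counting was not given in the sources used here.

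ABCA3, the lipid transporter of the lamellar body membrane, lies at chr16:2275881-2340746 on the minus strand. It was measured at 125, 141 and 147 CPM with sgRNA control and at 110, 121 and 127 CPM with sgRNA #2. Control replicate 1 lay within the sgRNA #2 range, but each same-numbered pair was lower with sgRNA #2, by -0.18, -0.22 and -0.21 (log2). The log2 fold change was -0.21 (SE 0.0765, 95% interval -0.37 to -0.05, adjusted p = 0.242). With the replicate block the adjusted p was 0.00176.

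LPCAT1 makes dipalmitoylphosphatidylcholine, the main surface-active lipid, by adding a palmitoyl chain to lysophosphatidylcholine. The gene is at chr5:1456480-1523962 on the minus strand. It was the most abundant member, at 1432, 1331 and 1450 CPM with sgRNA control and 1208, 1088 and 1360 CPM with sgRNA #2. The third sgRNA #2 library lay inside the control range and the other two lay below it. The log2 fold change was -0.20 (SE 0.0776, 95% interval -0.37 to -0.04, adjusted p = 0.265). The adjusted p was 2.43e-05 with the replicate block and 0.0461 with no filter on low counts. The size was the same in these fits, so the call on ABCA3 and LPCAT1 depends on how the spread is estimated and not on the estimate.

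NAPSA and CTSH are lysosomal proteases that trim the SP-B precursor. NAPSA, at chr19:50358472-50365830, was measured at 33.9, 39.0 and 44.8 CPM with sgRNA control and 34.3, 41.5 and 44.0 CPM with sgRNA #2. The libraries of both groups covered nearly the same range, and the log2 fold change was 0.01 (95% interval -0.23 to 0.26, adjusted p = 0.984). The interval spans a 0.854- to 1.20-fold change. Of the 50-base stretches of its canonical transcript, 28.7% also occurred in NAPSB or in NR1H2, which overlaps its exons on the opposite strand, so that its level carries the same uncertainty as SP-A. CTSH had 34, 32 and 35 counts with sgRNA control and 26, 21 and 30 with sgRNA #2, and its log2 fold change of -0.30 had a wide interval of -0.80 to 0.20 (adjusted p = 0.737). Changes of CTSH within this interval could not be detected at this depth.

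**Figure D3:**
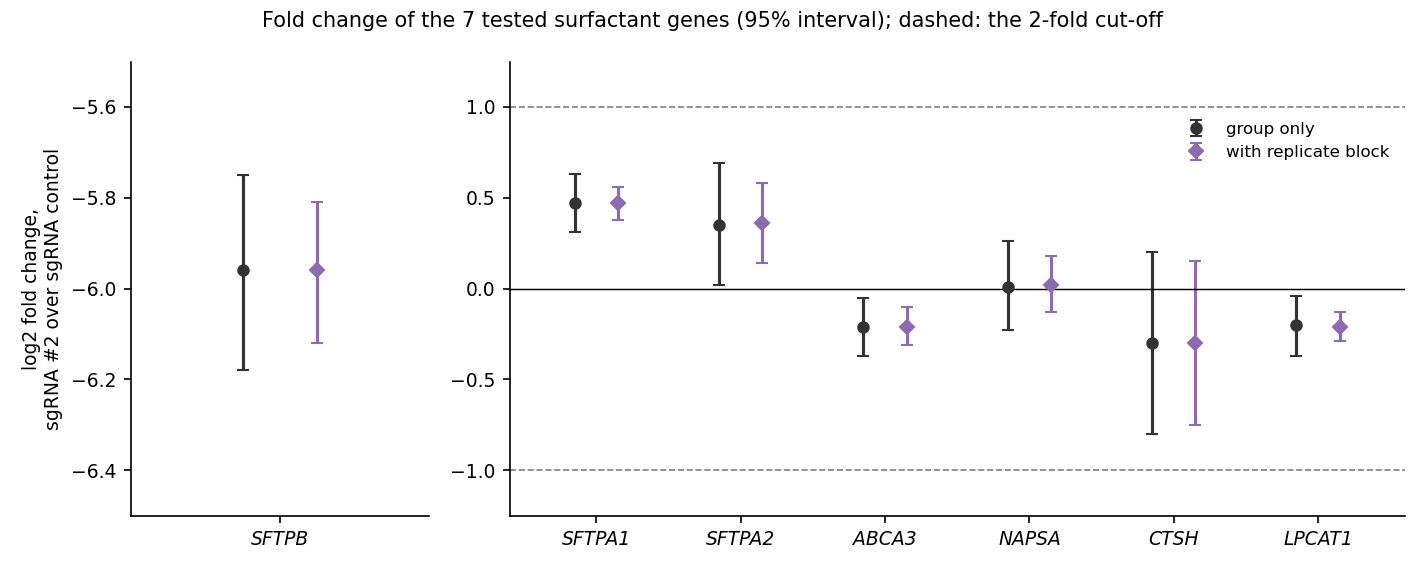
Log2 fold change of sgRNA #2 over sgRNA control for the 7 tested surfactant genes (SFTPB on its own axis at left) with 95% intervals, from the fit on group alone (black circles) and with a replicate block (purple diamonds); dashed lines mark the 2-fold cut-off. SFTPB lies near -5.96, and the other 6 lie within the 2-fold lines in both fits.

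The median log2 fold change of the 6 tested members other than SFTPB was -0.09, against 0.003 over all genes tested. Their median says little of the single genes, which included both SFTPA1 at 0.47 and CTSH at -0.30. At an unadjusted p under 0.05 there were 5 members, where 11.1% of all genes had such a p. These were SFTPB, SFTPA1, SFTPA2, ABCA3 and LPCAT1.

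Levels of different genes were compared per kilobase of merged exons, on the scale of TPM. With sgRNA control the order was LPCAT1 at 985 ± 48.8, SFTPB at 460 ± 11.7, SFTPA1 at 348 ± 12.7, ABCA3 at 80.1 ± 6.74, NAPSA at 49.7 ± 7.06 and SFTPA2 at 29.1 ± 6.37 (SD, n = 3 each). CTSH at 1.60, SFTPD at 1.46, SFTPC at 0.705 and SLC34A2 at 0.0956 followed far below. The ranges of CTSH and SFTPD overlapped, as did those of SFTPD and SFTPC, and those of the other neighbours did not. SFTPB and SFTPA1 were thus near each other in level, SFTPA2 was far below SFTPA1, and SFTPC and SFTPD were scarce.

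With sgRNA #2 the order of the other genes was kept and SFTPB moved from rank 2 to rank 6, at 7.50 ± 1.39 on the same scale. It then stood between SFTPA2 at 37.7 ± 6.25 and CTSH at 1.32 ± 0.306. Set against 13077 tested genes with a length, SFTPB was above 98.1% of them with sgRNA control and above 19.1% with sgRNA #2. SFTPA1 was above 97.0% and 98.3%, and LPCAT1 above 99.4% and 99.3%. The length used for a gene moved some neighbours. With canonical transcript lengths NAPSA stood above ABCA3 (81.3 against 58.6 with sgRNA control), and SFTPB at 5.37 and CTSH at 5.22 overlapped with sgRNA #2. With the longest transcript of each gene SFTPC, at 1.59, stood above SFTPD, at 1.23, with sgRNA control. CTSH has 13757 bp of merged exons and a canonical transcript of 2145 bp.

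**Figure D4:**
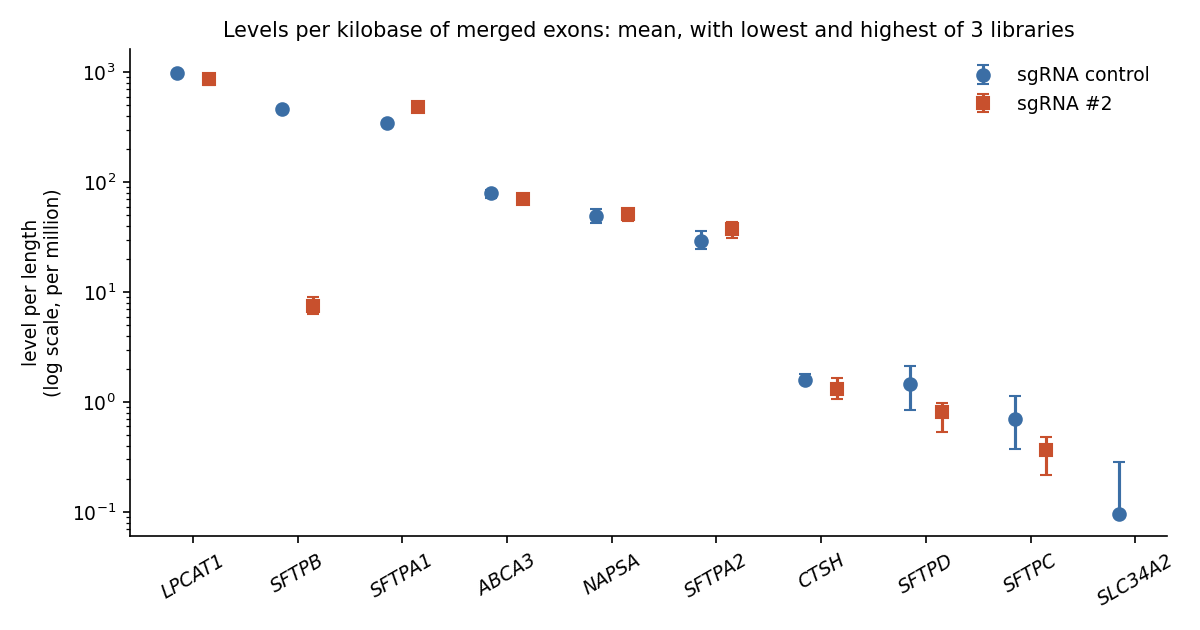
Level of the 10 genes per kilobase of merged exons (TPM scale, log axis) with sgRNA control (blue circles) and sgRNA #2 (orange squares); points are means and bars run from the lowest to the highest of 3 libraries. SFTPB moves from 460 to 7.50 and the other genes keep their order among themselves. SLC34A2 is at 0 with sgRNA #2 and has no point there, and its control bar is cut at the mean because 2 libraries were at 0.

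The summed level of the members was lower with sgRNA #2, and its ranges overlapped once SFTPB was left out. The 10 genes summed to 2210 ± 59.9 CPM with sgRNA control and 1672 ± 139 CPM with sgRNA #2 (SD, n = 3 each). Without SFTPB the sums were 1793 ± 55.0 and 1666 ± 138 CPM. Without SFTPB and LPCAT1 they were 389 ± 20.7 and 447 ± 39.8 CPM. SFTPB made up 18.3 to 19.2% of the summed CPM of the members in the control libraries and 0.352 to 0.446% in the sgRNA #2 libraries.

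The starts of the other members were searched for partial matches to the guide. Within 1000 bp of the start of the other 9 genes, the longest run of the guide's PAM-proximal bases next to an NGG was 4 to 6 bases. The median over 13068 tested genes was 5 bases. SFTPA1 had the shortest run, at 4 bases, and NAPSA and LPCAT1 the longest, at 6, a length that 24.1% of the tested genes reached. SFTPB itself had all 20.

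Around the members, 149 other genes of surfactant biology in 6 lists were examined, of which 136 were tested. The lists were drawn from general knowledge of surfactant, with earlier results of these data known. The share called among them is therefore not independent of these data. By the adjusted p, 9 of the 136 were called (6.62%, against 2.69% of all genes tested), 3 higher and 6 lower with sgRNA #2. The median log2 fold change of each list without the members lay between -0.05 and 0.04.

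LAMP3, a lysosome-associated membrane protein of lamellar bodies, fell. Its counts were 89, 142 and 111 with sgRNA control and 15, 36 and 37 with sgRNA #2, with no overlap, and the log2 fold change was -1.86 (SE 0.251, adjusted p = 1.7e-04). The study's own DESeq2 analysis described LAMP3 as weakly repressed, and its adjusted p there was not under 0.05. DESeq2 as run here gave an adjusted p of 7.76e-09. The reason for this difference was not tested. LAMP3 was 1 of the 2 genes called, both lower, among 36 tested genes of lamellar body formation and secretion other than the members. The other was P2RY2, the ATP receptor that triggers surfactant secretion, at -1.05 (adjusted p = 4.04e-06), which was -0.96 without control replicate 2 and -0.97 without sgRNA #2 replicate 3. Their list held ABCA3 as well, and its median was -0.01.

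In the list of SP-B and SP-C processing, 17 genes other than NAPSA and CTSH were tested, and 1 was higher and 1 lower. CTSL, a cysteine protease of the lysosome, rose by 0.66 (adjusted p = 2.0e-04). CTSD, its aspartic counterpart, fell by 0.37 (adjusted p = 0.0118). Among 32 tested genes of phospholipid synthesis other than LPCAT1, AGPAT2, which makes phosphatidic acid, fell by 0.35 (adjusted p = 0.00986) and no other was called.

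Among 11 tested genes of alveolar phosphate, ion and water handling, the water and glycerol channel AQP3 rose by 0.68 (adjusted p = 0.029). SFTPA1 was the 1 gene called among 10 tested collectins and collectin partners. The list of surfactant transcription factors, with 32 tested genes, also holds co-activators such as EP300 and the receptor ERBB3. In it ETV5, a factor of type II cell identity, rose by 0.38 (adjusted p = 0.00458). The retinoid X receptor RXRA fell by 0.59 (adjusted p = 2.25e-05) and the epithelial factor ELF3 by 0.32 (adjusted p = 0.0288). The calls of CTSD, AGPAT2, AQP3 and ELF3 were each lost without some single libraries, with adjusted p up to 0.0942, 0.0671, 0.122 and 0.209, and that of AQP3 also in DESeq2 (adjusted p = 0.497). Those of CTSL, LAMP3, P2RY2, ETV5 and RXRA were kept without each library. The human NKX2-1 row had 59, 85 and 71 counts against 64, 46 and 56. In CPM these were 9.396, 12.04 and 9.335 against 9.104, 6.909 and 9.328, which narrowly did not overlap. Over all genes 15.6% did not overlap. The log2 fold change of this row was -0.28 (95% interval -0.66 to 0.09, adjusted p = 0.627). The study states that A549 cells lack endogenous NKX2-1. The rat transgene, the regulator introduced here, has no row and was not counted separately. Whether reads of the rat transcript add to the human counts was not tested.

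**Figure D5:**
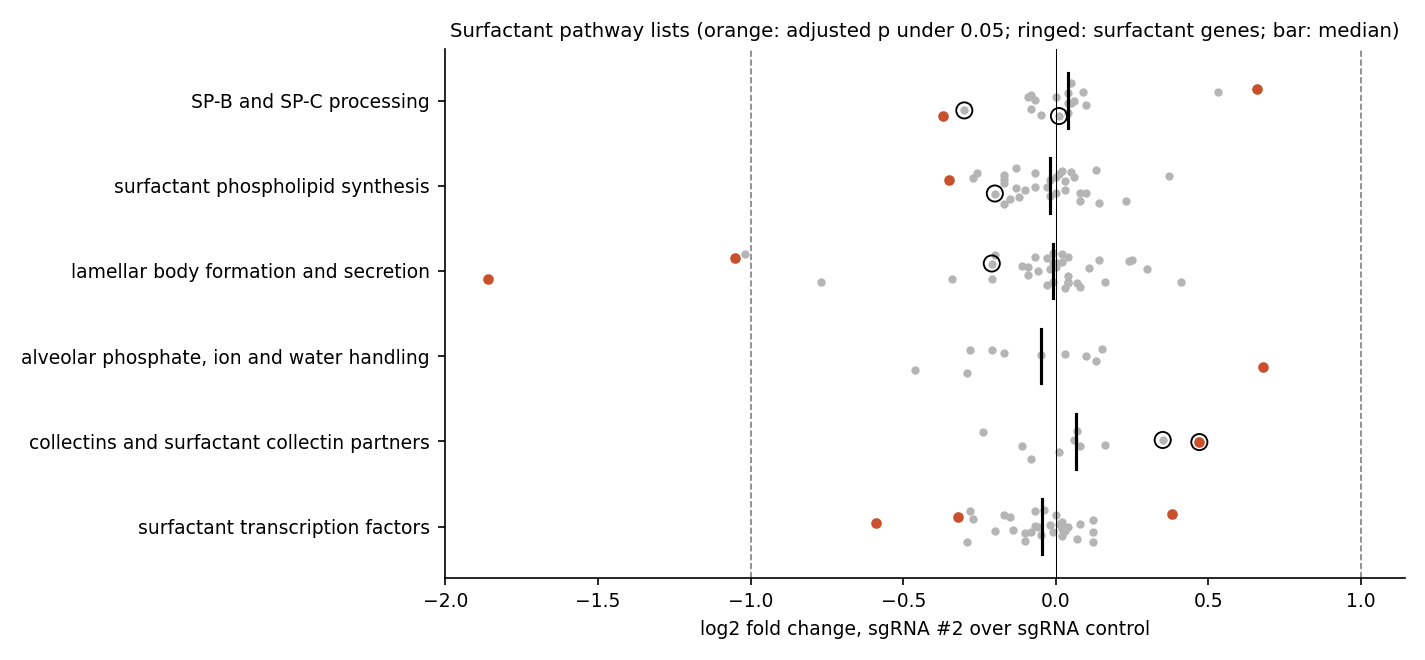
Log2 fold change of sgRNA #2 over sgRNA control for the tested genes of 6 surfactant pathway lists, each point a gene (orange, adjusted p under 0.05; ringed, the surfactant genes themselves other than SFTPB, which is in none of the lists), with black bars at list medians and dashed lines at 2-fold. The list medians, with the ringed genes included, lie between -0.05 and 0.06, and the gene farthest to the left is LAMP3 at -1.86.

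Some markers of other cell types and of type II cells differed between the groups as well. Of the airway secretory markers, 3 of 10 were tested, and 2 were called by the adjusted p, both lower, where 2.22% of all genes were. The 10 genes of that list summed to 55.4 to 118 CPM with sgRNA control and 45.6 to 51.4 CPM with sgRNA #2, with SCGB3A1, SCGB3A2, BPIFA1 and TFF3 at 0 in every library. The mucin genes MUC5B and MUC5AC fell by 0.91 and 1.37 on the log2 scale (adjusted p = 0.01 and 0.00522), and in DESeq2 the adjusted p of MUC5B was 0.165. The third, SPDEF, was at 0.21 on that scale (adjusted p = 0.758). Of 7 tested type I markers, EMP2 fell by 0.34 (adjusted p = 0.00548) and AKAP5 by 0.74 (adjusted p = 0.037), the latter call being lost in DESeq2 (0.131) and without each single library in turn (0.0651 to 0.183). Of the 6 tested type II markers other than the surfactant genes, 1 was called higher and 2 lower by the adjusted p. Over all genes tested, 0.464% were higher and 2.22% lower at that threshold. ETV5 rose by 0.38 and LAMP3 was at -1.86, as given above. DMBT1 fell by 0.59 (adjusted p = 0.0047, and 0.0541 in DESeq2). HHIP, HOPX and MUC1 were at 0.22, 0.06 and -0.61 and were not called. HOPX is also in the list of type I markers and was counted in both lists. No tested basal, ciliated, leukocyte, fibroblast or endothelial marker was called by edgeR or DESeq2, with 1 of these 7, CCDC78, at an unadjusted edgeR p under 0.05 (0.0147). Their part in the results on the surfactant genes was not tested.

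The genes whose level most resembled that of SFTPB across the 6 libraries, by Pearson's r on log2 CPM, were FDFT1 (squalene synthase, 0.999), LGALS1 (galectin-1, 0.998), ECHS1, BSG and SLC12A4 (0.998 each). Their log2 fold changes were -2.53, -2.22, -1.95, -1.01 and -4.28, and all 5 passed both cut-offs. These values describe the gap between 2 groups of 3 libraries and little else. For SFTPA1 the most similar were GLP2R and SPATA6L (0.993 each), TMEM2 (0.989), RIN2 and PCBD2 (0.987 each), with log2 fold changes of 0.44, 0.35, 0.14, 0.17 and 0.15. Of these 5, GLP2R alone passed the adjusted p (0.0237), and it did not without control replicate 1 or 3 or sgRNA #2 replicate 2 or 3 (0.0615 to 0.155). All these genes share their 6 libraries, and no test was made of the likeness.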

How the data were processed

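RNA-seq was performed by the authors on total RNA of 6 A549 samples (3 sgRNA control, 3 sgRNA #2). They deposited raw counts per gene symbol from htseq-count. The submitters' processing notes name Trim Galore, FastQC, Bowtie2 2.3.3.1, SAMtools, Picard, HTSeq and build hg38. Read length and strand setting were not given in the sources used here. Reads in no gene were 19.7 to 21.1% and ambiguous reads 2.61 to 2.75%, and both stayed out of library sizes.

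Counts of at least 10 in at least 3 libraries were required, and 13356 genes were tested with edgeR 4.0.16 (R 4.3.3, TMM scaling, quasi-likelihood test on group, Benjamini-Hochberg adjustment over all tested genes). CPM values use TMM-scaled library sizes. The cut-offs were those of the study's methods, a log2 fold change of at least 1 in size and an adjusted p under 0.05. DESeq2 1.42.0, other scalings and filters, a test against 2-fold, a replicate block and leaving out each library were alternatives. Canonical transcript lengths were an alternative chosen after seeing the data. The procedure was tested on simulated data. Lengths and positions came from GENCODE 44 (24545 of 26485 symbols matched), promoters from RefSeq.

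The named genes were the 10 members, NKX2-1, LAMP3, up to 3 genes per list with the smallest p among those called, the 5 genes most like SFTPB and SFTPA1, and cell type markers. MUC5B and MUC5AC are among the markers. The members and lists were chosen with earlier results of these data known. Deviations from the group means were correlated between libraries of equal replicate number (r = 0.281, 0.295 and 0.301 for pairs 1 to 3, and below 0 for all other pairs). The labels and methods name no shared batch, so the pairing comes from the data. The study's text calls the 3 libraries of each group independent biological replicates, and the labels number them only. No libraries of a group agreed within sampling noise (chi-square per degree of freedom 2.72 to 3.61).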

Additional observations from a re-analysis of the deposited data

How the results depend on the processing

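SFTPB stayed lower and past both cut-offs under all 13 alternatives, with log2 fold changes of -6.12 to -5.85, and SFTPA1 stayed higher with an adjusted p under 0.05 under its 12, at 0.40 to 0.55. With the replicate block, 5 members instead of 2 and 22 genes of the pathway lists instead of 9 passed the adjusted p, and in that fit and in the one with no filter on low counts the dispersion had no gene-specific part. The block changed the calls of SFTPA2, ABCA3 and LPCAT1 and of no other member. Without single libraries, 6 to 11 pathway genes passed the adjusted p and 1 to 2 both cut-offs, with 1 without control replicate 2 and 1 without sgRNA #2 replicate 3. NAPSA changed sign, between -0.08 and 0.12, and was -0.08 without control replicate 1, -0.02 without sgRNA #2 replicate 2 and -0.06 without sgRNA #2 replicate 3. The log2 difference of the SFTPA1 to SFTPA2 ratio was -0.05 to 0.18 without single libraries. Sign-flips of the 3 same-numbered pairs of that ratio gave p = 0.75 in an exact permutation test whose smallest p is 0.25. The causes of these shifts were not tested. Depth limits SFTPC, SFTPD, SLC34A2 and CTSH, for which only large changes could be seen.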
